A study of Mus musculus with 10 samples.

Results

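The genes described here are 10 genes of the presomitic mesoderm and its segmentation clock: Tbx6, Msgn1, Mesp2, Dll1, Dll3, Lfng, Hes7, Ripply2, Pcdh8 and Nrarp. They were taken from the count table by symbol. All 10 were found among the 38720 symbols of the count table, and all 10 passed the filter on low counts that left 16340 tested genes. Expression was measured by RNA sequencing in the microdissected tail bud, the growth zone at the posterior end of the mouse embryo, at the embryonic day the labels write as e12point5. The 10 libraries formed 3 groups. Lin28a-induced embryos (replicates 2, 3, 4 and 5, n = 4) received doxycycline and carried TRE-Lin28a (a Lin28a transgene that the drug-dependent activator rtTA switches on), RLSL-rtTA (rtTA behind a stop cassette that Cre removes) and FoxD1-Cre. The no-Cre group (replicates 6, 7 and 8, n = 3) also received doxycycline and carried TRE-Lin28a and RLSL-rtTA, but no FoxD1-Cre. Wild-type libraries (replicates 1, 2 and 3, n = 3) are labelled only as such, with no transgene or drug named. The induced Lin28a therefore comes from cells in which FoxD1-Cre has acted, and the labels do not say which tail bud cells those are. Nor do they say how many embryos went into a library, so p-values measure the spread between these libraries.

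Presomitic mesoderm is the unsegmented tissue that leaves the tail bud and is cut into somites, the blocks that form vertebrae and muscle. Its cells run a molecular clock in which Notch signalling and its own inhibitors switch on and off in waves, and each wave ends where a new segment border is laid down. Tbx6 and Msgn1 are transcription factors that give the tissue its identity. Dll1 is the activating Notch ligand, and Dll3 is a divergent family member that does not activate the receptor on neighbouring cells. Lfng is a glycosyltransferase that modifies Notch, Hes7 is the oscillating repressor at the core of the clock, and Nrarp is a feedback inhibitor that Notch induces. Mesp2 sets the border and the polarity of each segment, Ripply2 shuts off the Tbx6 and Mesp2 programme at the border, and Pcdh8 (also called PAPC) is an adhesion protein of the forming somite. Because the clock cycles, a dissected tail bud is caught at whatever phase the embryo was in.

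Libraries held 21762668 to 39517946 counts, with the 3 wild-type libraries the smallest. Lin28a stood at 605 to 750.3 CPM (counts divided by the scaled total of their library) in the Lin28a-induced libraries, at 2.64 to 5.03 CPM in the no-Cre libraries and at 4.45 to 6.16 CPM in the wild-type libraries, so it followed the labels in every library. Tail bud progenitor genes (T, Wnt3a, Cdx2 and 11 more) summed to 2507 to 2810 CPM in the Lin28a-induced, 2469 to 2628 CPM in the no-Cre and 1182 to 2075 CPM in the wild-type libraries, and none of the 14 was at 0 in any group. The wild-type libraries stood apart: mitochondrially encoded genes took 1.85% to 2.69% of their counts and 0.446% to 0.690% of the others. Wild-type replicate 2 was the lowest of all libraries both for the progenitor genes and for the summed members (351 CPM, against 1268 or more in the doxycycline-treated libraries). Whether the wild-type libraries were handled in another batch is not given, and batch, genotype and doxycycline cannot be told apart in any comparison with them. In whole tissue, fewer cells of a type and less RNA per cell cannot be told apart either.

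The promoters of 4 members are shown because the results below turn on these genes: Lfng and Hes7, which moved together between libraries, Mesp2, which swung most, and Ripply2, which followed neither. Each window runs from 250 bases before to 50 bases after the annotated start in RefSeq (GRCm38.p6), 5′ to 3′ on the gene's strand, which is the plus strand for all 4. Capitals mark TGGGAA, the core bound by RBPJ (the DNA-binding partner of Notch), and GGTGTGA, a sequence bound by T-box factors such as Tbx6, on either strand. Lfng lies at chr5:140607091-140607390, Hes7 at chr11:69120203-69120502, Mesp2 at chr7:79810477-79810776 and Ripply2 at chr9:87015287-87015586.
Lfng: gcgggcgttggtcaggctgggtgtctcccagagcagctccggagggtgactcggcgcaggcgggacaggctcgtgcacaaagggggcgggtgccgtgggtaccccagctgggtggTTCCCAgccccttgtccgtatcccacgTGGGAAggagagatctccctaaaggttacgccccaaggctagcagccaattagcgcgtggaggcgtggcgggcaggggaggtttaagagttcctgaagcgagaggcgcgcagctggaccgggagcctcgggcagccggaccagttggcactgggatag
Hes7: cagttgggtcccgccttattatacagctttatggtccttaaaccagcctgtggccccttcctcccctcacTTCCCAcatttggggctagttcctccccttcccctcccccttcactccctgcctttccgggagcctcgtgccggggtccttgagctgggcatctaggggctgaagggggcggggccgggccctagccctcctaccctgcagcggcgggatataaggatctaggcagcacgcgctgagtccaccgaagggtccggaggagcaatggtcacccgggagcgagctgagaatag
Mesp2: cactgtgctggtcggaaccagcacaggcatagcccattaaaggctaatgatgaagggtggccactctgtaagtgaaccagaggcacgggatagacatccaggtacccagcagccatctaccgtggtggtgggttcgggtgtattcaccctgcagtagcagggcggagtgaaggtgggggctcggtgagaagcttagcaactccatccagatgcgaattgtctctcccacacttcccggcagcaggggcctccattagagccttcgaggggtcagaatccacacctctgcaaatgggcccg
Ripply2: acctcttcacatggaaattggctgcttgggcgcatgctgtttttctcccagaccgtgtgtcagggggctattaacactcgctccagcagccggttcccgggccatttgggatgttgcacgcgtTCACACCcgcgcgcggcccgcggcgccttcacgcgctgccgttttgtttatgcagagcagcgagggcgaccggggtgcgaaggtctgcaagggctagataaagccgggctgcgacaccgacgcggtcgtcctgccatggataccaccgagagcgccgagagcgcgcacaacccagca

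The RBPJ core was present in the windows of 3 of the 10 members, Lfng, Hes7 and Msgn1, and in 25.6% of the 32851 promoter windows of the same length. The Lfng window held 2 copies, which began at -135 and -108 relative to the start site, and the second overlapped an E-box (CANNTG, bound by basic helix-loop-helix factors such as Mesp2 and Msgn1). The Hes7 window held 1 copy, at -180. The T-box sequence occurred in 1 member window, that of Ripply2 at -127, and in 3.98% of all windows. An E-box was present in the windows of 8 members and in 72.3% of all windows. The N-box (CACNAG, bound by Hes repressors) was present for 6 members and in 42.5% of all windows. The 10 members have 11 windows, since Dll1 has more than 1, and a member counts if any of its windows holds the motif. The Mesp2 window held 2 E-boxes and none of the other 3 motifs. These are letter matches, and these windows do not reach enhancers farther away.

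The level per kilobase of exon (RPKM) put the members in a different order in each group. In the Lin28a-induced libraries the mean level ran from Msgn1 (116 RPKM), Dll3 (109), Tbx6 (92.8) and Dll1 (80.6) through Nrarp (66.9), Lfng (66.1), Hes7 (53.5) and Pcdh8 (40.7) to Mesp2 (14.5) and Ripply2 (12.48). In the no-Cre libraries Tbx6 (106 RPKM) and Dll3 (105) came first, followed by Msgn1 (91.7) and Dll1 (85.1), and Mesp2 (16.9) and Ripply2 (17.4) were again last. In wild type the order ran from Msgn1 (65.7 RPKM), Tbx6 (56.1), Dll3 (36.1), Dll1 (32.01) and Nrarp (30.3) to Hes7 (21.7), Lfng (20.1), Pcdh8 (8.30), Ripply2 (5.30) and Mesp2 (1.22). Many neighbours in these orders were closer than their spread, such as Msgn1 (SD 17.01) and Dll3 (SD 13.2) in the Lin28a-induced and Tbx6 (SD 7.28) and Dll3 (SD 2.20) in the no-Cre libraries. In both doxycycline-treated groups the border genes Mesp2 and Ripply2 were therefore the least abundant of the set, and the identity factors and ligands the most abundant.

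The identity factor Tbx6 stood at 199.7, 162, 172 and 136 CPM in Lin28a-induced replicates 2 to 5, at 179, 190.4 and 205 CPM in no-Cre replicates 6 to 8, and at 123, 56.7 and 123 CPM in the 3 wild-type libraries, replicates 1 to 3. Msgn1 stood at 86.3, 64.3, 67.7 and 65.05 CPM in the Lin28a-induced, 53.1, 58.9 and 56.6 CPM in the no-Cre, and 51.1, 16.5 and 53.2 CPM in the wild-type libraries. The 2 doxycycline-treated groups overlapped for Tbx6 and did not overlap for Msgn1, where all 4 Lin28a-induced libraries were above all 3 no-Cre libraries. Lin28a-induced replicate 2 was the highest library of all for Msgn1, and wild-type replicate 2 the lowest for both genes.

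The Notch ligand Dll1 stood at 422, 299.6, 376 and 263 CPM in the Lin28a-induced, 321, 392 and 364 CPM in the no-Cre, and 179.5, 59.5 and 166 CPM in the wild-type libraries. Dll3 stood at 348, 286, 335 and 270.3 CPM, then 291, 299.6 and 303 CPM, then 129, 43.7 and 136 CPM. For both ligands the Lin28a-induced libraries spread to either side of the no-Cre libraries, with replicates 2 and 4 high and replicates 3 and 5 low. All 7 doxycycline-treated libraries lay above all 3 wild-type libraries.

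The Notch modifier Lfng stood at 219, 133, 204 and 108 CPM in the Lin28a-induced, 157, 216 and 150.4 CPM in the no-Cre, and 65.2, 41.2 and 44.9 CPM in the wild-type libraries. The clock repressor Hes7 stood at 138, 75.7, 115 and 58.3 CPM, then 81.6, 104 and 72.03 CPM, then 45.9, 27.7 and 44.3 CPM. The feedback inhibitor Nrarp stood at 196, 141, 218 and 136 CPM, then 184, 196 and 177 CPM, then 84.5, 68.3 and 82.2 CPM. Replicates 2 and 4 were again the high Lin28a-induced libraries for all 3 genes, and no-Cre replicate 7 was the highest of its group for all 3. Between the highest and lowest Lin28a-induced library the ratio was 2.36 for Hes7 and 2.03 for Lfng.

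The border gene Mesp2 stood at 57.4, 5.43, 44.6 and 5.69 CPM in the Lin28a-induced, 9.83, 81.8 and 6.90 CPM in the no-Cre, and 1.51, 4.30 and 1.29 CPM in the wild-type libraries. Each doxycycline-treated library thus held either under 10 CPM or over 40 CPM, and the highest library exceeded the lowest 10.6-fold in the Lin28a-induced and 11.9-fold in the no-Cre group. Ripply2 stood at 12.8, 6.53, 2.45 and 14.9 CPM, then 10.97, 13.7 and 13.8 CPM, then 3.02, 5.64 and 3.03 CPM. The Lin28a-induced libraries were the most scattered for Ripply2, with a 6.10-fold ratio of highest to lowest, and replicate 4, which was high for Mesp2, was the lowest. Pcdh8 stood at 157, 193, 177 and 211 CPM, then 262, 251 and 261 CPM, then 44.5, 27.6 and 40.95 CPM. The 3 groups did not overlap for Pcdh8, and the no-Cre libraries were nearly level, at 258 ± 5.72 CPM (SD, n = 3).

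**Figure D1:**
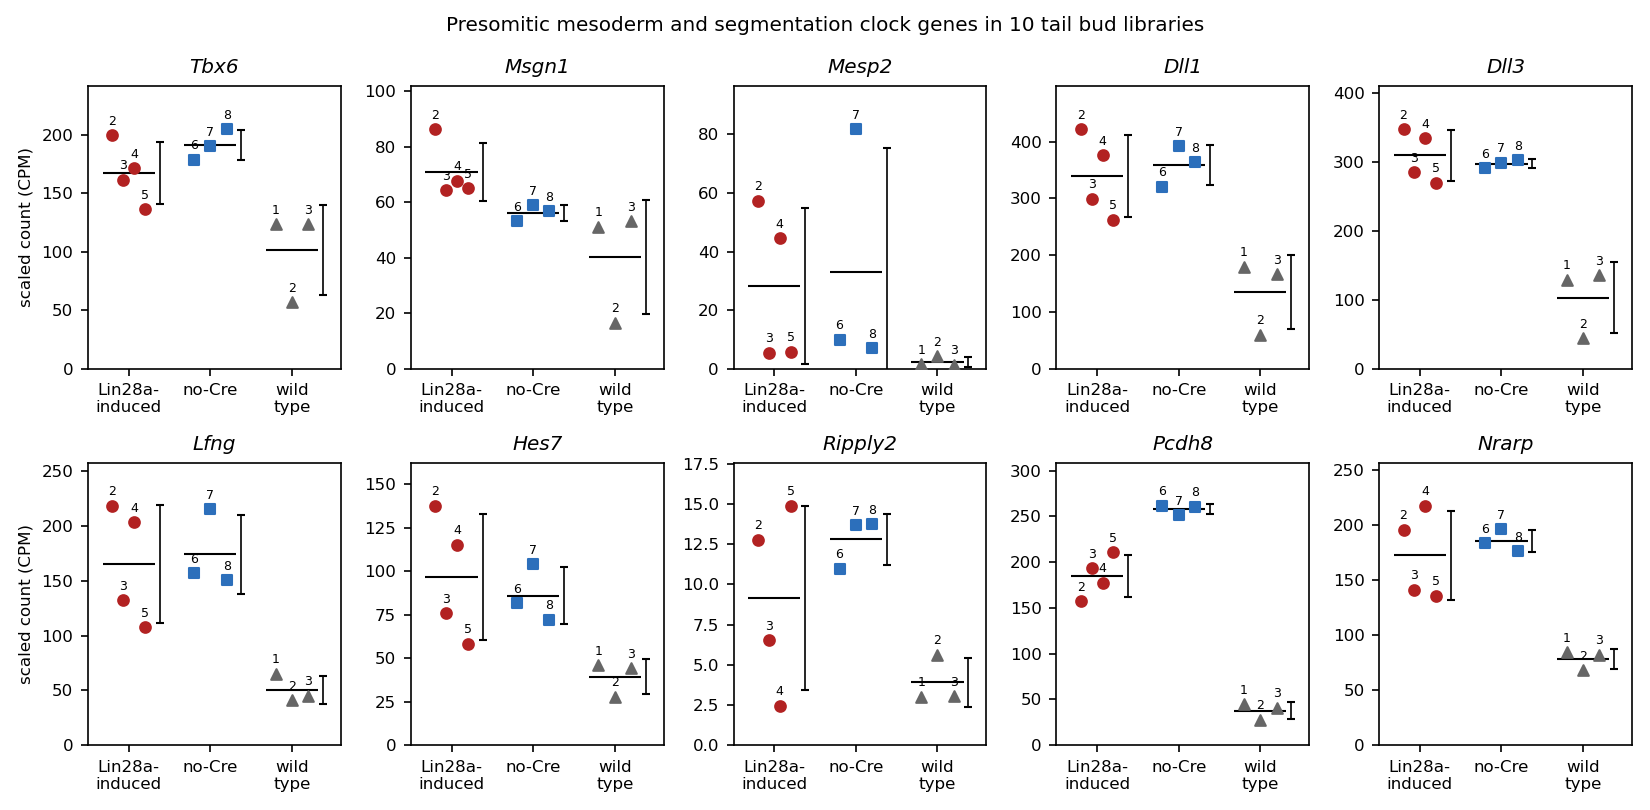
Scaled counts (CPM, linear axis from 0) of the 10 members in the 10 libraries; points are libraries, and lines are group means with 1 SD beside them, cut at 0 for Mesp2 in the no-Cre group, and small digits are replicate numbers. Mesp2 falls into high and low libraries within the doxycycline-treated groups (5.43 to 81.8 CPM), while Pcdh8 separates the 3 groups.

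The members differed widely in how much they varied between libraries of a group. The biological coefficient of variation that edgeR estimates from such libraries was 1.01 for Mesp2, which is at the 99.9th percentile of the 16340 tested genes, whose median was 0.0986. Ripply2 (0.489, percentile 98.8), Dll1 (0.327, 93.2), Msgn1 (0.324, 93.0), Dll3 (0.312, 92.1) and Hes7 (0.295, 90.6) were also above the 90th percentile. Lfng (0.265, 86.8) and Tbx6 (0.239, 83.0) came next, and Nrarp (0.152, 67.0) and Pcdh8 (0.136, 62.9) varied least. All 10 members were above the median gene. For Dll1, Dll3, Msgn1 and Tbx6 the largest deviation from a group mean was in wild-type replicate 2, at -1.02, -1.07, -1.11 and -0.75 on the log2 scale, whereas Mesp2 (1.08) and Ripply2 (0.60) were above their group mean in that library.

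Mesp2 shared its swing with its neighbour Mesp1, a related transcription factor that lies on the opposite strand of the same chromosome (Mesp2 at chr7:79810727-79813439, plus strand, and Mesp1 at chr7:79792241-79793788, minus strand). Mesp1 stood at 18.2, 1.80, 16.8 and 2.08 CPM in the Lin28a-induced, 2.76, 19.3 and 1.99 CPM in the no-Cre, and 0.835, 2.31 and 0.735 CPM in the wild-type libraries. It was high in the same libraries as Mesp2, namely Lin28a-induced replicates 2 and 4 and no-Cre replicate 7, and in wild-type replicate 2 within that group. After subtraction of group means, Mesp1 was the tested gene most like Mesp2 (Pearson's r = 0.998 over the 10 libraries, a description with no test). Mesp1 and Mesp2 shared no run of 75 bases, the read length, in their annotated transcripts. The 3 libraries with high Mesp2 were also the 3 highest of the 7 doxycycline-treated libraries for Lfng, and the 3 highest for Hes7 as well. Since Mesp2 falls into separate clusters, it was left out of the pair tests below. Its r with Mesp1 spans these high and low libraries.

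**Figure D2:**
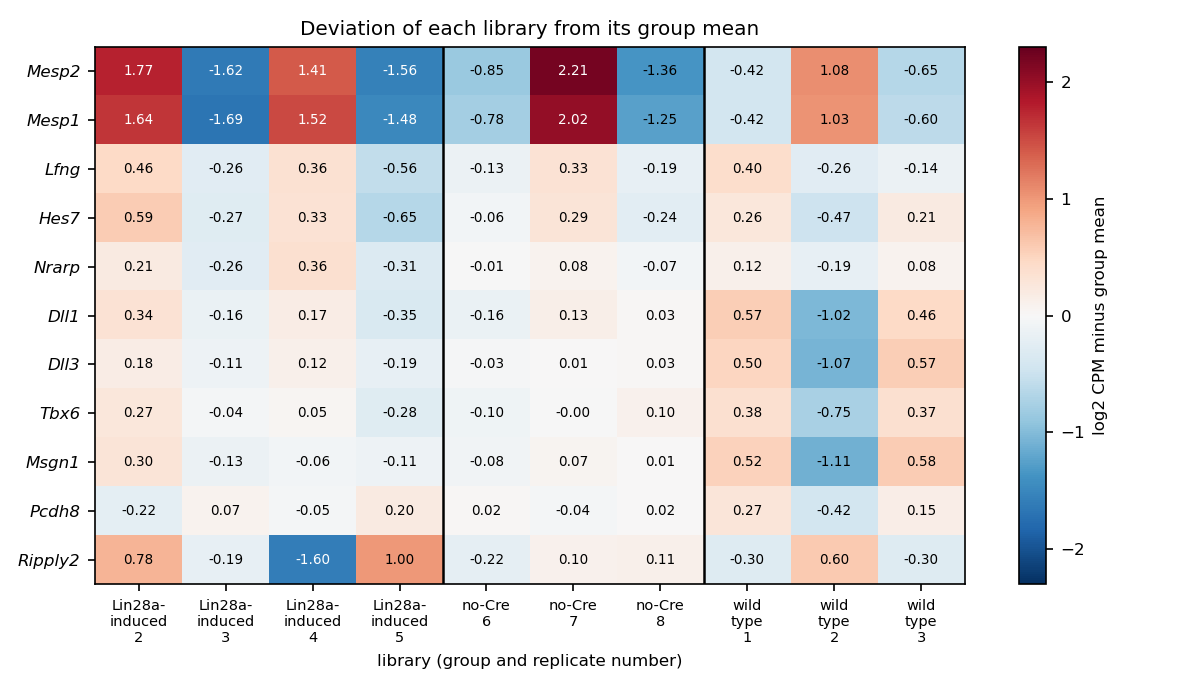
Log2 CPM of each library minus its group mean for the 10 members and for Mesp1, with libraries as columns and groups divided by black lines; red is above and blue below the group mean. Mesp2 and Mesp1 are red in Lin28a-induced replicates 2 and 4, no-Cre replicate 7 and wild-type replicate 2, and Lfng and Hes7 share the first 3 of these but not the last.

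**Figure D3:**
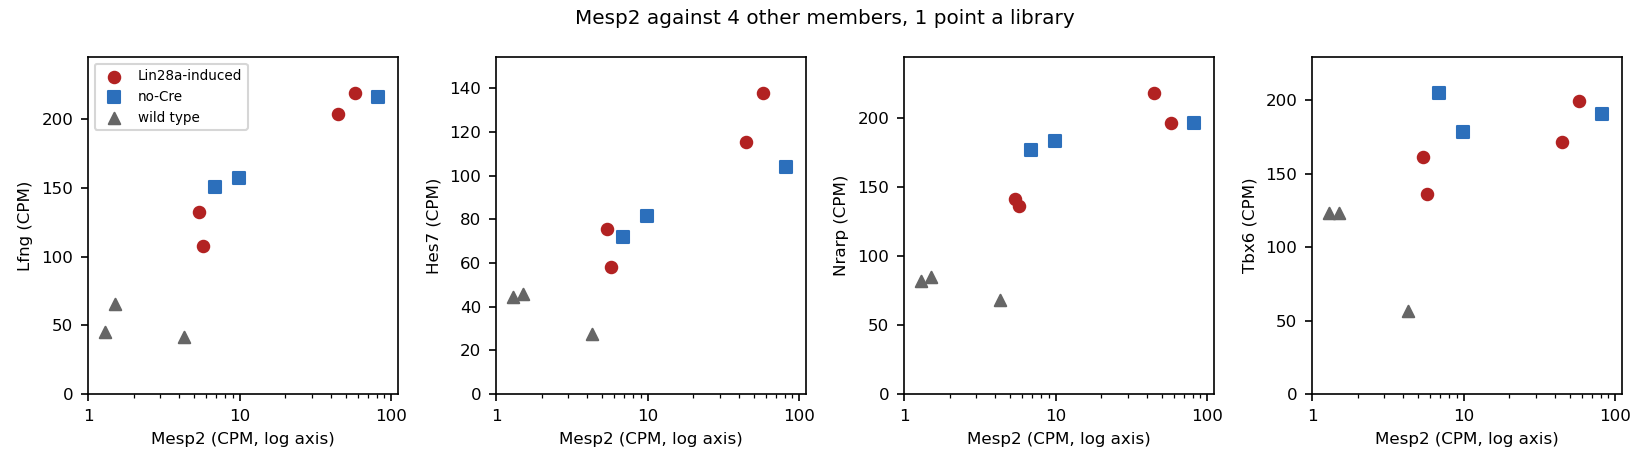
Levels of Lfng, Hes7, Nrarp and Tbx6 (CPM, linear axes from 0) against Mesp2 (CPM, logarithmic axis), 1 point for each of the 10 libraries, with colours and shapes for the groups. The 3 libraries with Mesp2 above 40 CPM also hold the most Lfng and Hes7, and for Tbx6 they do not stand above the other no-Cre libraries.

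Among the other 9 members, levels were correlated over the 7 doxycycline-treated libraries, with an exact permutation test of each of the 36 pairs. Pearson's r passed the threshold after Benjamini-Hochberg adjustment for 9 pairs, and Spearman's rho for 0 pairs. The 2 clock genes Lfng and Hes7 had r = 0.95 (exact permutation test, adjusted p = 0.0243) and rho = 0.93 (adjusted p = 0.081), and r stayed at 0.92 without the 2 libraries farthest from the median of Lfng. Dll1 and Lfng had r = 0.95 (exact permutation test, adjusted p = 0.0179) and rho = 0.96 (adjusted p = 0.05), and r = 0.81 without the 2 farthest libraries. The other positive pairs that passed were Lfng with Nrarp, Dll3 with Hes7, Dll1 with Dll3, Hes7 and Nrarp, and Tbx6 with Dll1. The pair of Dll1 and Nrarp rested on its 2 farthest libraries, since r went from 0.87 to 0.41 without them. Tbx6 with Dll1 went from 0.87 to 0.43 without the 2 libraries farthest on Dll1, and to 0.83 without the 2 farthest on Tbx6. Dll3 with Lfng (exact permutation test, adjusted p = 0.0629), Dll3 with Nrarp (0.108) and Hes7 with Nrarp (0.0818) did not pass. Ripply2 passed with no other member.

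The 1 negative pair that passed was Msgn1 with Pcdh8 (r = -0.93 with adjusted p = 0.0179 and rho = -0.96 with adjusted p = 0.05, exact permutation test, n = 7). Without the 2 libraries farthest from the median of Msgn1, r was -0.96. The 2 groups did not overlap for either gene, in opposite directions, and after subtraction of group means r was -0.87. This was not particular to Msgn1 within the doxycycline-treated groups. After the same subtraction Pcdh8 had r = -0.92 with Tbx6, -0.95 with Dll1 and -0.94 with Dll3. With Lfng it was -0.91 and with Hes7 -0.95, all given as descriptions with no test. Wild type did not follow for Dll3: both genes were lowest in wild-type replicate 2, at -0.42 (Pcdh8) and -1.07 (Dll3) from the group mean. Over all 10 libraries, after subtraction of group means, Pcdh8 with Dll3 had r = 0.70.

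The comparison of Lin28a-induced with no-Cre libraries sets FoxD1-Cre, and with it induced Lin28a, apart from doxycycline and the other 2 transgenes, which both groups share. None of the 10 members passed the threshold of 0.05 in edgeR's quasi-likelihood test, where 2.91% of all tested genes did (1.76% higher and 1.15% lower), and 1 member, Pcdh8, had an unadjusted p under 0.05. The members' median log2 fold change was -0.09, against -0.00 for all tested genes, with 3 members above and 7 below 0. The 2 groups did not overlap for 2 members, Msgn1 and Pcdh8, where 23.4% of all tested genes did not. DESeq2, or edgeR with these 2 groups alone, called 1 member, Pcdh8, where these settings called 7.02% and 11.2% of all genes with an adjusted p.

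Pcdh8 was the member closest to a call. Its mean was 185 ± 22.9 CPM (SD, n = 4) in the Lin28a-induced and 258 ± 5.72 CPM (SD, n = 3) in the no-Cre libraries, a log2 fold change of -0.48 ± 0.14 (SE; 95% interval -0.80 to -0.17), with adjusted p = 0.111. All 4 Lin28a-induced libraries were below all 3 no-Cre libraries. With DESeq2 the adjusted p of Pcdh8 was 0.0075 at a log2 fold change of -0.49, and with edgeR on these 2 groups alone it was 0.0117. Leaving out each library in turn gave log2 fold changes of -0.55 to -0.41 and adjusted p of 0.113 to 0.310 with edgeR.

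For the other members the intervals show which differences these libraries could not have told from none. Nrarp (log2 fold change -0.10, 95% interval -0.47 to 0.27) and Tbx6 (-0.19, -0.80 to 0.41) were bounded most tightly. Lfng (-0.07, -0.75 to 0.60), Dll3 (0.06, -0.74 to 0.85), Hes7 (0.17, -0.59 to 0.93) and Dll1 (-0.08, -0.92 to 0.76) had intervals that ended between 0.60 and 0.93 on the high side. Msgn1 (0.33, -0.48 to 1.14) reached farther up and Ripply2 (-0.48, -1.69 to 0.74) farther down, and Mesp2 (-0.23, -2.95 to 2.49) set almost no limit. The adjusted p of these 9 genes ran from 0.724 to 0.966. The sign of Mesp2 depended on single libraries: its value was 1.74 without no-Cre replicate 7, 0.12 without Lin28a-induced replicate 3 and 0.12 without Lin28a-induced replicate 5.

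**Figure D4:**
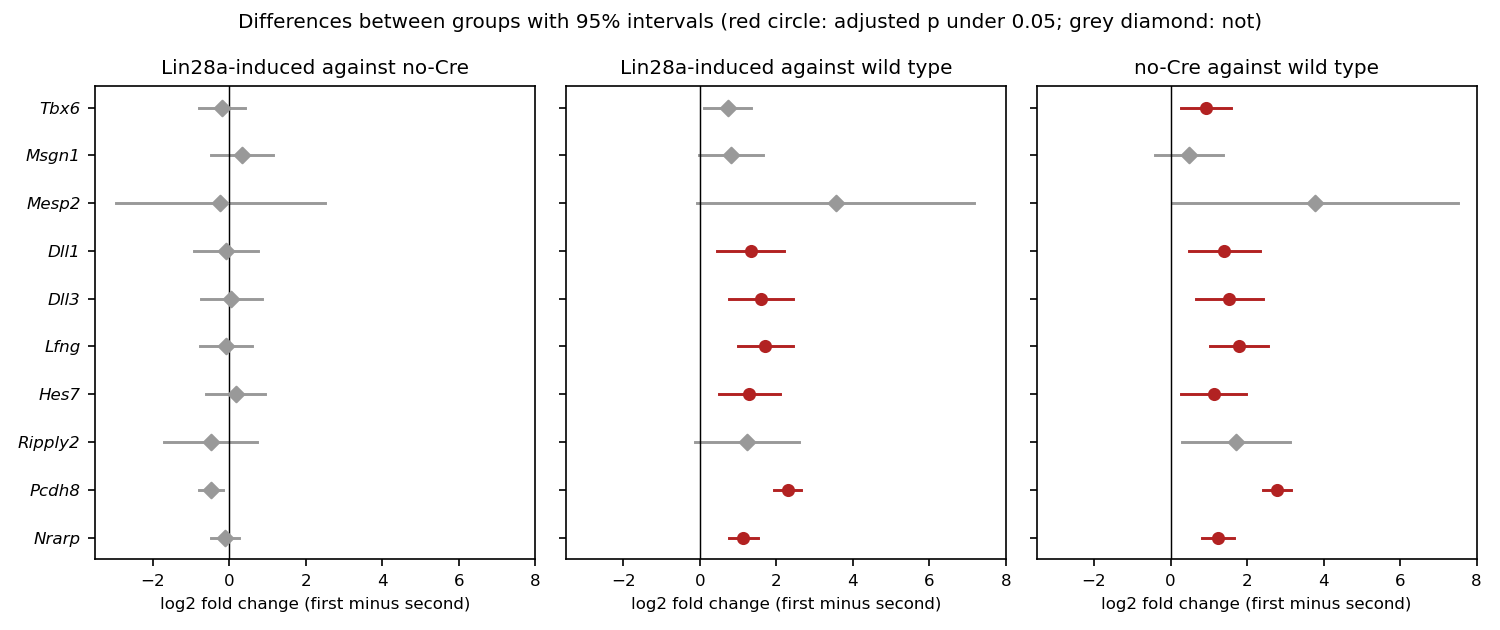
Log2 fold change of each member in the 3 comparisons (edgeR, markers) with its 95% interval (lines). Red circles passed the adjusted threshold of 0.05 and grey diamonds did not: between Lin28a-induced and no-Cre libraries every interval except that of Pcdh8 (-0.80 to -0.17) includes 0, and all values against wild type are above 0.

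Both doxycycline-treated groups were higher than wild type for most members. These comparisons share the 3 wild-type libraries, so their values are set side by side and are not independent. In the Lin28a-induced libraries 6 members rose against wild type (Pcdh8, Nrarp, Lfng, Dll3, Hes7 and Dll1) and 0 fell, where 24.3% of all tested genes rose and 25.0% fell. In the no-Cre libraries 7 members rose (the same 6 and Tbx6) and 0 fell, where 21.0% of all tested genes rose and 21.4% fell. In either direction 49.3% and 42.5% of all tested genes passed. Groups did not overlap for 9 members in each comparison (all but Ripply2 against the Lin28a-induced and all but Msgn1 against the no-Cre libraries), where 49.3% and 52.0% of all tested genes did not. All 9 lay above wild type each time, as 24.7% and 25.8% of tested genes did, with 24.6% and 26.2% below. The median log2 fold change of the members was 1.31 and 1.47.

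Pcdh8 was the largest of these calls, at 4.90-fold in the Lin28a-induced libraries (2.29 ± 0.16 on the log2 scale, with its SE, and adjusted p = 2.12e-06) and 6.85-fold in the no-Cre libraries (2.78 ± 0.17, adjusted p = 1.30e-06). Lfng was 3.28-fold (1.71 ± 0.31, adjusted p = 0.00267) and 3.46-fold higher (1.79 ± 0.33, adjusted p = 0.0035). Dll3 was 3.01-fold and 2.90-fold, Dll1 2.52-fold and 2.66-fold, Hes7 2.46-fold and 2.19-fold, and Nrarp 2.20-fold and 2.37-fold higher. The ligands, the modifier, the repressor and the feedback inhibitor thus all stood at over 2 times their wild-type level in both doxycycline-treated groups. Tbx6 was 1.89-fold higher in the no-Cre libraries (adjusted p = 0.0326), and its log2 fold change in the Lin28a-induced libraries was 0.73 ± 0.27 (adjusted p = 0.0546). Msgn1 (0.82, adjusted p = 0.0958, and 0.48, adjusted p = 0.341), Ripply2 (1.23, 0.118, and 1.71, 0.0555) and Mesp2 (3.55, 0.0949, and 3.78, 0.0948) did not pass in either comparison with edgeR. DESeq2 called Mesp2 in both (adjusted p = 0.00407 and 0.0051) and Ripply2 in the no-Cre libraries (0.0155). With edgeR, Ripply2 passed in the Lin28a-induced libraries without replicate 4 (1.55, adjusted p = 0.00484).

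Some of these calls changed when wild-type replicate 2 or a single no-Cre library was left out. Without wild-type replicate 2, 7 members rose in the Lin28a-induced libraries, where Tbx6 (0.44, adjusted p = 0.0291) and Msgn1 (0.44, adjusted p = 0.00956) then passed and Hes7 (1.09, adjusted p = 0.0657) did not. In the no-Cre libraries 6 members then rose, and Dll3 went from 1.53 to 1.17. Of all tested genes, 45.5% (Lin28a-induced) and 38.8% (no-Cre) passed without that wild-type library. The no-Cre count went to 4 without no-Cre replicate 7 or 8. In those fits 33.6% and 32.8% of all tested genes passed, against 42.5% in the main fit. Hes7 in the no-Cre libraries passed in 0 of the 6 fits that left out a library (adjusted p of 0.0544 to 0.127). Pcdh8, Nrarp, Lfng, Dll3 and Dll1 passed in both comparisons without wild-type replicate 2.

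Markers of other tissues also moved between these groups, and their counts stand beside the shares of all tested genes given above. Hindgut and epithelial genes summed to 899 to 1136 CPM in the wild-type, 315 to 366 CPM in the Lin28a-induced and 334 to 372 CPM in the no-Cre libraries, and 7 of 9 fell in each doxycycline-treated group, among them Cdh1 (epithelial cadherin, -1.62 and -1.62), Krt5 (-2.46 and -2.34) and Krt14 (-2.23 and -2.23), keratins of the surface epithelium. Neural tube genes summed to 224 to 270 CPM in the wild-type, 349 to 369 CPM in the Lin28a-induced and 404 to 434 CPM in the no-Cre libraries. Of the 11 neural genes, Sox1, Neurog2 and Olig2 were too low to test, 1 was at 0 in the whole no-Cre group and 1 in the whole wild-type group. Tail bud progenitor genes rose for 6 and 5 of 14, among them Sall4 (1.29 and 1.01) and Cdx2 (0.86 and 0.70), transcription factors of the growth zone. Blood and endothelial genes rose for 9 of 14 and fell for 1 in each doxycycline-treated group, with medians of 1.21 and 1.22, close to those of the members. The endothelial genes Cdh5 (93.1 and 90.8 against 24.3 CPM, adjusted p = 0.000912 and 0.00169), Kdr (66.1 and 67.2 against 16.9 CPM) and Pecam1 (51.4 and 48.7 against 18.5 CPM) were among those that rose. The globin Hba-a2 also rose, at 125 and 185 against 0.368 CPM (log2 fold change 8.41 and 8.98), with wild-type libraries at 0 to 0.690 CPM. The globin Hba-a1 did not follow: it stood at 249 and 367 against 529 CPM and did not pass. The gene that fell was the globin Hbb-bs, at 37.8 and 53.6 against 311 CPM (-3.05 and -2.54). The summed level of this list (2762 to 7956 CPM in the wild-type, 3661 to 5853 CPM in the Lin28a-induced and 5474 to 8873 CPM in the no-Cre libraries) was mostly the embryonic globin Hbb-y, which did not pass. Notochord and floor plate genes rose for 3 and 4 of 7 and fell for 2 (Foxj1 and Krt8), with medians of 0.65 and 1.06. Foxj1 fell by a log2 fold change of -1.55 and -1.53. Shh, the signal of the notochord, stood at 16.7 and 22.4 against 8.18 CPM and rose in both. The sums of this list (92.2 to 121, 76.7 to 79.6 and 90.3 to 102 CPM in the same order) went the other way, since the keratin Krt8, at 76.8 CPM in wild type, fell to 36.1 and 38.5 CPM. The part of these differences in the members' values was not tested.

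Few other genes of the Notch pathway passed between Lin28a-induced and no-Cre libraries, where 2.91% of all tested genes did. Of 18 ligands, receptors and modifiers, 1 fell and 0 rose: Notch1, the receptor of the presomitic clock, stood at 444 against 555 CPM (log2 fold change -0.32 ± 0.08, adjusted p = 0.0403). Of 13 genes of the receptor-cleaving gamma-secretase and the nuclear Notch complex, 1 fell and 0 rose: Maml2, a coactivator, stood at 67.0 against 92.8 CPM (-0.47 ± 0.07, adjusted p = 0.00329). None of 9 Notch target repressors and none of 16 Wnt and FGF genes that cycle or respond in presomitic mesoderm passed. The medians of these 4 lists were -0.05, -0.05, -0.03 and -0.05. Maml2 passed with each of the 7 libraries left out in turn, and Notch1 with none of them (adjusted p of 0.0657 to 0.225).

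Among 14 segment border and polarity genes, Foxc1, a forkhead factor of presomitic and somitic mesoderm, fell (-0.38 ± 0.09, adjusted p = 0.0445) and the other 13 did not pass. It lost its call with each of the 7 libraries left out (adjusted p of 0.0901 to 0.189). The median of this list was -0.26, and the medians of the neural tube, notochord and blood lists were -0.40, -0.41 and -0.24, where 1 of 8, 0 of 7 and 0 of 14 tested genes passed. The 1 that passed was Sox3, a neural progenitor factor at 2.69 against 5.12 CPM (-0.92 ± 0.18, adjusted p = 0.0138), and it passed with 4 of the 7 libraries left out. None of the 14 tail bud progenitor genes passed (median 0.07). The neural tube sums (349 to 369 against 404 to 434 CPM) and the notochord sums (76.7 to 79.6 against 90.3 to 102 CPM) did not overlap between these groups, and their part in the members' values was not tested.

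**Figure D5:**
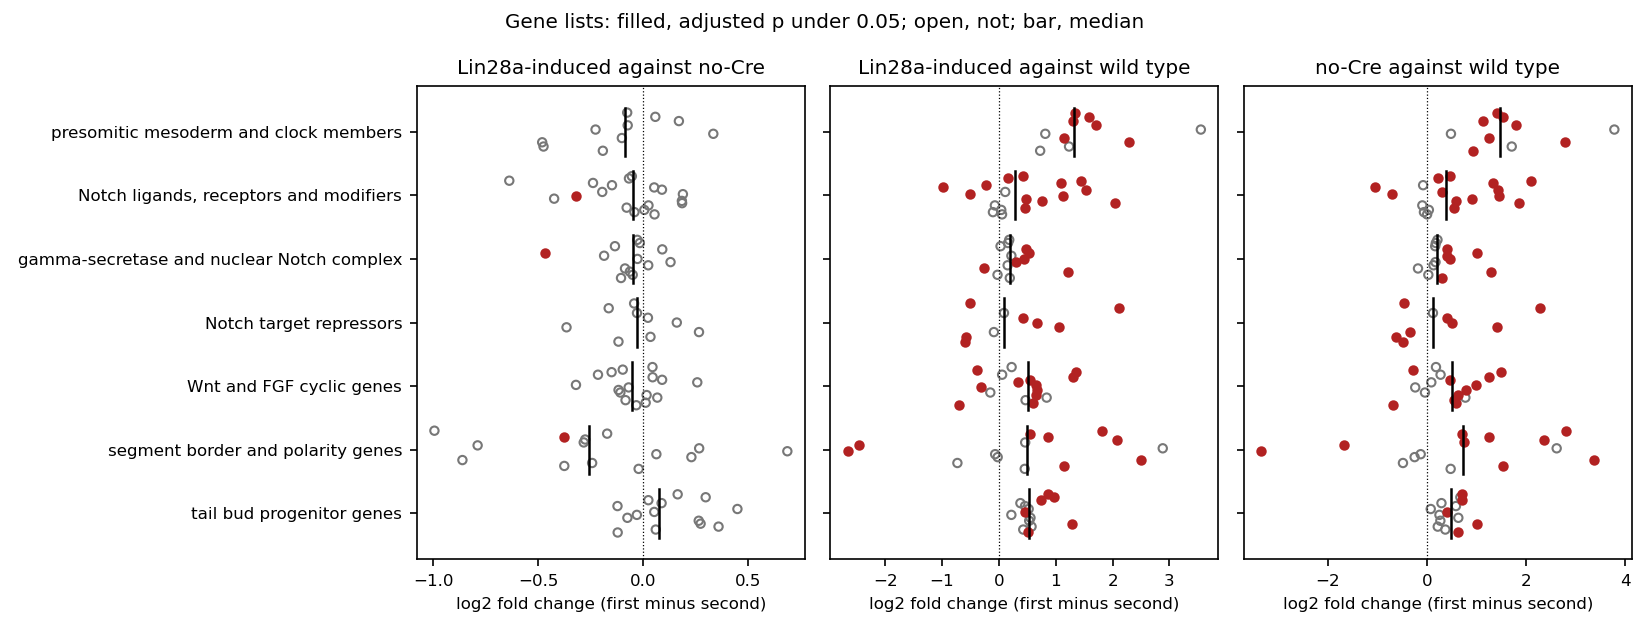
Log2 fold change of every tested gene of the members and of 6 other lists (points, spread vertically for legibility) with the median of each list (bars), in the 3 comparisons; filled points passed the adjusted threshold of 0.05. Between Lin28a-induced and no-Cre libraries 0 members pass, and against wild type the members have medians of 1.31 and 1.47.

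Against wild type, many genes of these lists passed in both directions, as did many of all tested genes. In the Lin28a-induced libraries 24.3% of all tested genes rose and 25.0% fell. In the no-Cre libraries 21.0% rose and 21.4% fell. Of the 18 ligands, receptors and modifiers, 10 rose and 3 fell in the Lin28a-induced and 11 rose and 2 fell in the no-Cre libraries. Notch1 (1.12 and 1.44 on the log2 scale) and Mfng (1.53 and 1.44), a paralog of Lfng, rose, and Jag2 (-0.99 and -1.04), a ligand of the Jagged family, fell. In the nuclear complex and gamma-secretase list 5 of 13 rose and 1 fell, and 6 rose and 0 fell. Rbpj, the DNA-binding partner of the cleaved receptor, was among those that rose (1.22 and 1.28). Of the 9 Notch target repressors 4 rose and 3 fell, and 4 rose and 4 fell. Hes5 (2.11 and 2.28, from 0.322 CPM in wild type) rose, while Hes1 (-0.52 and -0.47) and Id3 (-0.60 and -0.48) fell. The repressors as a list therefore moved both ways.

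Of the 16 Wnt and FGF genes, 8 rose and 3 fell, and 8 rose and 2 fell. Dusp6, a phosphatase that FGF signalling induces, rose by 0.55 and 0.47, Has2, a hyaluronan synthase, by 0.66 and 0.98, and Tnfrsf19, a Wnt target, fell (-0.71 and -0.68). Of the 14 border and polarity genes, 6 rose and 2 fell, and 7 rose and 2 fell. Foxc2 (2.08 and 2.36) and Foxc1 (0.87 and 1.25) rose. Meox2 (-2.46 and -1.67) and Pax1 (-2.65 and -3.34), factors of formed somites and of the sclerotome derived from them, fell. Other factors of formed somites did not follow: Tcf15 rose (1.15 and 1.53), Meox1 was at 0.46 (adjusted p = 0.0825) and rose by 0.75 in the no-Cre libraries, and Pax3 (-0.06 and -0.13) and Pax9 (-0.02 and -0.25) did not pass.

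The 8 tested genes whose deviations from group means were most like the mean of the 10 members were Tmem81 (r = 0.95), Bcs1l (0.94), Cd164l2 (0.93), Sssca1 (0.92), Agap3 (0.92), Tmem106a (0.92), Uqcrfs1 (0.92) and Hras (0.91), out of 16330 candidates over 10 libraries. None is in a list used here. These values are descriptions with no test, and Bcs1l ranged only from 17.2 to 18.8 CPM over all libraries. The members were averaged without scaling, so a member with wide swings weighed more in the mean. Mesp2 deviated most, by 2.21 in no-Cre replicate 7. Among the members themselves, the closest were Msgn1 to Dll3 (0.98), Dll1 to Tbx6 (0.98), Lfng to Hes7 (0.92) and Nrarp to Hes7 (0.91). These values were not particular to the set, since each of these genes had closer genes outside it. Usp42 was closest to Tbx6 (0.996, with Dll1 at rank 12 of 16339) and Skiv2l to Msgn1 (0.995, with Dll3 at rank 15). Tpm3 was closest to Dll3 (0.995, with Msgn1 at rank 28) and Scamp3 to Hes7 (0.974, with Lfng at rank 10). Msgn1, Dll3, Dll1 and Tbx6 all deviated most in wild-type replicate 2. Over the 7 doxycycline-treated libraries alone, after subtraction of group means, r was 0.75 for Msgn1 with Dll3 and 0.91 for Tbx6 with Dll1. Ripply2 had no member like it, with -0.09 at most.

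Reads from 4 members could be shared with an antisense neighbour, because the strand setting of the counting is not given. Annotated exons on the other strand covered 79.4% of the exon bases of Nrarp (Gm38287), 20.5% of Dll1 (A930024N18Rik), 12.9% of Hes7 (9130213A22Rik) and 9.6% of Pcdh8 (Gm9748). A930024N18Rik stood at 0.398 to 1.38 CPM and 9130213A22Rik at 3.41 to 8.71 CPM over all libraries, both below the lowest value of the member they overlap. The neighbours of Nrarp and Pcdh8, Gm38287 and Gm9748, are not among the symbols of the count table. No level can be given for them, and the values of Nrarp and Pcdh8 are uncertain to that extent. The other 6 members overlapped no other annotated exon.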

How the data were processed

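The authors deposited counts of reads for each gene symbol and library, with no normalization. The submitters' processing notes name STAR 2.3.1z4, the mm10 build, featureCounts and, with no step given, DESeq2, for reads of 75 bases. How the counting treated strand and reads with several alignments is not given in the sources used. Total counts of 21762668 to 39517946 per library set the precision.

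From these counts, genes were filtered with filterByExpr, scaled by TMM and fitted in edgeR 4.0.16 (quasi-likelihood test, robust) with 1 coefficient per group over all 10 libraries. Adjusted p-values (Benjamini-Hochberg, over all 16340 tested genes, threshold 0.05) come from edgeR unless another tool is named. CPM uses TMM-scaled totals, log2 CPM a prior count of 0.5, and RPKM the exon union of GENCODE M21 (GRCm38). The test was checked on simulated data. Members and lists were chosen with earlier results of these data known. Named genes are the members, list genes past the threshold against no-Cre, up to 3 list genes per direction with the smallest p against wild type, the 8 genes most like the members, and overlapping genes. Mesp1 was singled out after its values were seen. Some other list genes, such as Cdh5 and Tcf15, were named outside this rule. Alternatives were DESeq2 1.42.0, its size factors in edgeR, limma-voom (limma 3.58.1), no filter on low counts, a minimum of 1 CPM in 3 libraries, a fit of the 2 groups alone, no globin or mitochondrial genes, a replicate block and leaving out each library. Scripts ran in R 4.3.3 and in Python 3.11.15 (pandas 2.3.3, numpy 2.4.6, matplotlib 3.10.9).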

Additional observations from a re-analysis of the deposited data

Results flagged for a closer look

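In the Lin28a-induced group of 4 libraries, 4 of 64 genes checked had 1 library far from the other 3 (its gap to the nearest library, as a share of the group's range, was above Dixon's critical value). Chance sets about 1 in 20 such groups apart. Msgn1, the presomitic identity factor, stood at 86.3 CPM in replicate 2 and at 64.3 to 67.7 CPM in the other 3. Epha4, an ephrin receptor of the segment border, stood at 251 CPM in replicate 2 and at 317 to 329 CPM in the others. Pax1, a sclerotome factor, stood at 3.58 CPM in replicate 5 and at 0.929 to 1.19 CPM in the others. Krt5, an epithelial keratin, stood at 41.6 CPM in replicate 5 and at 31.4 to 32.6 CPM in the others.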

How the results depend on the processing

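Against no-Cre, 0 members passed in edgeR, 1 (Pcdh8) with only the 2 groups compared and 1 with DESeq2, and 0 in each of the 7 fits that left out a library. Against wild type, the count of 6 for the Lin28a-induced libraries was 6 to 7 with a library left out and 3 to 8 under the other settings. Of all genes, 43.5% to 48.9% and 16.7% to 54.6% passed in these fits. The count of 7 for the no-Cre libraries was 4 to 6 with a library left out, with 4 in the fits without no-Cre replicate 7 or 8, and 5 to 9 under the other settings. The shares of all genes were 32.8% to 43.6% with a library left out and 24.9% to 47.2% under the other settings. With no-Cre and wild type alone it was 5, as Tbx6 (adjusted p = 0.0738), Dll1 (0.0671) and Dll3 (0.0564) no longer passed and Ripply2 (0.000742) did. Signs against no-Cre changed as libraries were left out for Mesp2 (-0.84 to 1.74), Lfng (-0.24 to 0.11), Dll1 (-0.20 to 0.029), Dll3 (-0.0056 to 0.12) and Hes7 (-0.053 to 0.35), and the cause was not tested. The calls of all tested genes against no-Cre (288 higher, 188 lower) were 912 and 879 with only these 2 groups, and as low as 73 and 31 with a library left out. Lin28a-induced and wild-type replicates 2 and 3 share only a number (correlation of deviations -0.03 and -0.07 in 2 pairs). With that number as a replicate block, 5 members passed, and 3 passed in the same 4 libraries with no block, a setting chosen after seeing the data. Of all tested genes, 22.7% passed with the block and 16.7% without it.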

Other observations

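In Lin28a-induced replicate 2, 4 of the 14 segment border and polarity genes, chosen here after their values were seen, were low beside the other 3 libraries of the group. Ripply1, a repressor related to Ripply2, stood at 0.297 CPM against 2.03 to 2.24 CPM. Uncx and Tbx18, which mark opposite sides of a somite, stood at 0.726 against 3.70 to 14.03 CPM and at 0.429 against 2.82 to 4.45 CPM. Cer1, a secreted inhibitor expressed in the newest somite, stood at 21.0 against 58.8 to 83.7 CPM. Mesp1, of the same list, was highest in this library (18.2 against 1.80 to 16.8 CPM), and Ripply2 (12.8 CPM) second highest. The same library was the highest of its group for Mesp2, Lfng, Hes7, Dll1, Dll3, Tbx6 and Msgn1, and the lowest for Pcdh8. No test was made of these values.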
